A study of Mus musculus with 11 samples.

Results

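The departure of a double knockdown from additivity was measured in the mouse neuroblastoma line Neuro-2A (N2A) as the contrast double minus Fubp1 minus Khsrp plus siNT. The contrast used 9 of the 11 libraries of the series. They were 2 libraries of cells transfected with small interfering RNA pools against Khsrp and Fubp1 together (the double knockdown), 2 with the pool against Fubp1 alone, 2 with the pool against Khsrp alone, and 3 with non-targeting pools (siNT). Cells were harvested 48 h after transfection, and polyadenylated RNA was sequenced. The series design describes duplicates and a triplicate of biological origin. Because a pool lowers a transcript without removing it, and because N2A is a single line, the contrast describes partial loss in 1 cell background. A value of 0 means that both knockdowns together did what the separate effects add up to.

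Fubp1 and Khsrp encode related proteins that bind single-stranded nucleic acid through KH domains, and both have been described in pre-mRNA splicing as well as in transcription or mRNA decay. When paralogous regulators share sites, the loss of either can be covered by the other, which is called redundancy. Other possible outcomes are masking, where the double knockdown falls short of or turns back the single effects, and opposition, where both proteins pull a site in opposite directions.

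Both targets were lower in the double knockdown. In the authors' deposited table, Fubp1 stood at 19.82 RPKM in the double knockdown, 27.89 RPKM after Fubp1 knockdown, 189.89 RPKM after Khsrp knockdown and 180.07 RPKM in siNT. That left 11% of the siNT level in the double knockdown and 15.5% after Fubp1 knockdown. Khsrp stood at 6.77, 48.23, 8.06 and 47.03 RPKM in the same order of groups in the authors' deposited table, which is 14.4% of siNT in the double and 17.1% after Khsrp knockdown. Both targets were thus somewhat lower with the combined pools than with a pool alone, and the part of this in the departures was not tested. The third family member, Fubp3, had 54.19 RPKM in the double knockdown, 79.94 RPKM after Fubp1 knockdown, 72.59 RPKM after Khsrp knockdown and 68.46 RPKM in siNT, with an authors' FDR of 0.266 for the double against siNT.

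The cells carried the markers of their line. All 11 sympathoadrenal and neuronal markers were at 1 RPKM or more in siNT, and their levels summed to 981.33 RPKM in the double knockdown, 1135.48 after Fubp1 knockdown, 1089.44 after Khsrp knockdown and 1174.82 in siNT. Markers of fibroblasts, glia, immune cells and epithelium summed to at most 6.9 RPKM in any group. The muscle list summed to 23.57 to 43.5 RPKM, nearly all of it Myh3, while Myod1 was listed at 0 in all 4 groups. Libraries differed by depth and by set. The median number of reads per tested splicing event was 133 and 99 in the double knockdown, the lowest pair, against 113 to 221 in the other 7 libraries. Library numbers place both Fubp1 libraries with siNT A and B in an early set and the rest in a late set, and the second principal component of splicing (11.6% of variance) followed those sets. This set effect cancels in the contrast when siNT C is left out, and values without siNT C are given where they differ.

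Exons carried most of the departures, and most of these exons were skipped more than additivity gives. Of 60137 splicing events tested, 108 departed from additivity (0.18%), 96 of them with lower percent spliced in (PSI) than additivity gives (0.16%) and 12 with higher PSI (0.02%). PSI measures how much of a gene's RNA includes an exon, keeps an intron or uses a splice site. An event was called when limma on the log2 odds of inclusion gave a Benjamini-Hochberg adjusted p under 0.05 over all events and the observed PSI lay at least 10 points from the additive one. Among exons of any length, 92 of 21319 were lower (0.432%) and 11 were higher (0.0516%). Of 26596 retained introns 3 were lower and 1 higher, of 7031 alternative 3′ splice sites 1 was lower, and no alternative 5′ splice site was called of 5191. Microexons, which are at most 27 nt long, gave 5 of the calls, all lower, among 478 tested. These 5 lay at 4 distinct positions and the 108 at 107, since a Senp6 microexon is listed under more than 1 entry.

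The calls lay in 92 genes, and the distance between observed and additive PSI ranged from 10.1 to 64.5 points with a median of 29.2. In 96 of the 96 events called lower, both double libraries lay below all other 7 libraries of the contrast, against 14.6% of all tested events. In 10 of the 12 events called higher they lay above all other 7, against 6.44% of all tested events. The calls were made from the same values, so these counts describe the called events and are not separate evidence. The authors' deposited table of calls against siNT marks 103 of the 108 for the double, 50 for the Fubp1 pool and 13 for the Khsrp pool, and it marks 52 for the double alone. Over all tested events the median departure was -0.08 on the log2 odds and 53% were negative.

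The number of calls rests on every knockdown library and on weighting by read number. It fell to 7 without double A, 1 without double B, 0 without Fubp1 A, 1 without Fubp1 B, 0 without Khsrp A, 20 without Khsrp B, 60 without siNT A and 62 without siNT B, and it was 104 without siNT C and 0 in limma without weights, where 5307 events had an unadjusted p under 0.05 against 6432 with weights. Of the 21 events that the naming rule chose, 1 was called without double A, 0 without double B, 0 without either Fubp1 library, 0 without Khsrp A, 6 without Khsrp B, 11 without siNT A, 12 without siNT B and 18 without siNT C.

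**Figure D1:**
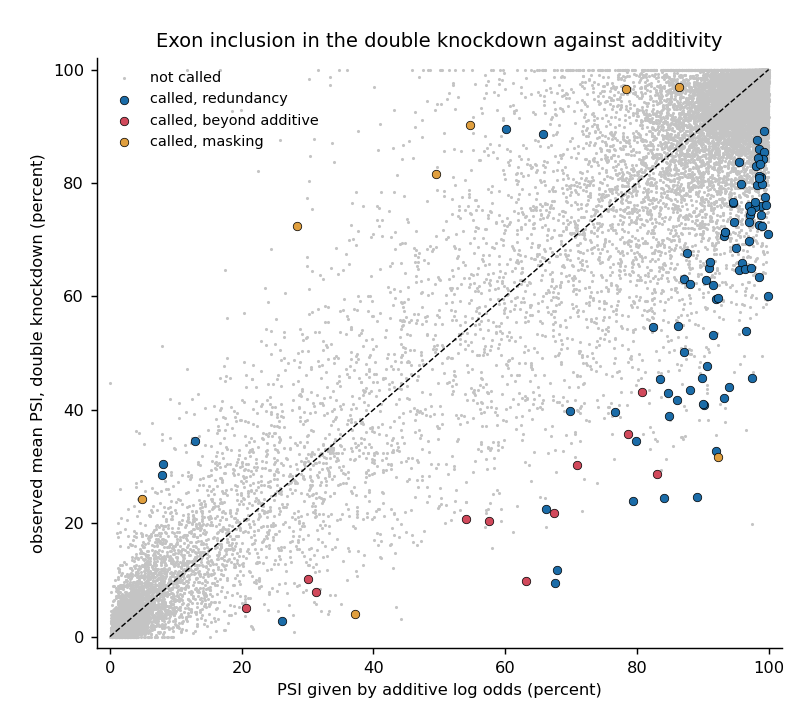
Observed mean PSI of each tested exon in the double knockdown (vertical axis, percent) against the PSI given by additive log odds of both single knockdowns and siNT (horizontal axis, percent). Grey points were not called, coloured points are the called exons by pattern, and the dashed line marks equality; 92 called exons lie under the line, most of them at the right edge, and 11 lie above it.

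Redundancy was the commonest pattern among the called events. It was defined as less than 10 points of difference from siNT in each single knockdown and at least 10 points in the double knockdown. It held 88 of the 108 called events. The authors' deposited table marks 33 of these 88 for the Fubp1 pool and 6 for the Khsrp pool. The pattern thus does not mean that a single knockdown had no effect. The exons of Btaf1, Zmym2 and Senp6, described below, are among those marked for the Fubp1 pool. Of the 88 events, 82 were lower than additivity gives. In those 82 events the median PSI was 64.9% in the double knockdown, 94.6% after Fubp1 knockdown, 97.1% after Khsrp knockdown and 97.4% in siNT, while additivity gives 94.3%. In 60 of the 82, both single knockdowns were within 5 points of siNT. The shares of all tested events with single differences under 10 or 5 points were not computed. Of the 79 exons among the 82, 77 were included at 80% or more in siNT, beside 13570 of 17575 tested exons matched to GENCODE. The count of 88 follows the same libraries as the total: it was 6 without double A, 1 without double B, 0 without Fubp1 A, 1 without Fubp1 B, 0 without Khsrp A, 17 without Khsrp B, 48 without siNT A, 49 without siNT B, 82 without siNT C and 0 without weights.

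Of the named exons, the 5 with the greatest distance on the lower side and the first 3 of the masking pattern are printed below in full, so that the lower and the higher exons can be set beside each other. Each is read 5′ to 3′ from GENCODE vM21 transcripts (build GRCm38), with the first base, which lies on the exon side of the 3′ splice site, in capitals. The first 5 exons below were lower and the last 3 were from the masking pattern, in which Sh3pxd2a and Epn1 were higher and Abi2 lower than additivity gives.
Btaf1, chr19:36951034-36951177, plus strand: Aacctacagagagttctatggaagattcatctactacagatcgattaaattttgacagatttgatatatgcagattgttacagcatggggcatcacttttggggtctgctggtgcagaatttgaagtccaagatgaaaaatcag
Zmym2, chr14:56928187-56928337, plus strand: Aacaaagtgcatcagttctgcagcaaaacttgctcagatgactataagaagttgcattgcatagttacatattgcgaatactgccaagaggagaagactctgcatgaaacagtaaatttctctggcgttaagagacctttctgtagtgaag
Senp6, chr9:80098886-80098906, plus strand: Caatcaggaccgaaaagaaag
Zmym4, chr4:126907086-126907236, minus strand: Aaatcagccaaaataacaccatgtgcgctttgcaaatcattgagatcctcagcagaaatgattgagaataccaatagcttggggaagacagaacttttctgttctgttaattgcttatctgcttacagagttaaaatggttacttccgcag
Med6, chr12:81579570-81579685, minus strand: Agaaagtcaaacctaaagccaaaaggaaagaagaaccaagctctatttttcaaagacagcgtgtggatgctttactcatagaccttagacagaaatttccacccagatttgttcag
Sh3pxd2a, chr19:47283021-47283104, minus strand: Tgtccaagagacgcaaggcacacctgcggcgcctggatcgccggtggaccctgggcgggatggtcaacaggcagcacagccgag
Epn1, chr7:5093312-5093386, plus strand: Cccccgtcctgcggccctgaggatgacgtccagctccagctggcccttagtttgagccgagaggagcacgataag
Abi2, chr1:60438942-60438959, plus strand: Tggttgcttagatttaag

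The exon of Btaf1, which encodes an ATPase that takes the TATA-binding protein off DNA, stood furthest from additivity. This 144 nt coding exon was included at 23.15% and 25.98% in the double knockdown, 90% and 88.92% after Fubp1 knockdown, 96.44% and 95.19% after Khsrp knockdown, and 95.04%, 97.79% and 94.55% in siNT. Both double libraries lay far below the other 7, which did not spread over more than 9 points. Additivity gives 89.11%, and the departure was -4.65 on the log2 odds (95% interval -6.06 to -3.23, limma adjusted p = 0.0117).

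The Zmym2 exon belongs to a gene for a zinc finger protein of chromatin complexes. This 151 nt coding exon was included at 36.24% and 29.29% in the double knockdown, 88.48% and 90.46% after Fubp1 knockdown, 98.07% and 96.09% after Khsrp knockdown, and 97.62%, 96.1% and 94.66% in siNT. The double libraries did not overlap the others, and the departure was -4.55 (95% interval -5.92 to -3.18, limma adjusted p = 0.0116). Its paralog Zmym4 has a called coding exon of the same length. That exon was included at 26.67% and 21.3% in the double knockdown, 87.36% and 78.29% after Fubp1 knockdown, 75.31% and 81.4% after Khsrp knockdown, and 78.64%, 89.42% and 77.36% in siNT. Single knockdowns and siNT overlapped one another while the double stood apart, with a departure of -3.59 ± 0.62 (SE, limma adjusted p = 0.0316).

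Senp6 encodes a protease that trims SUMO chains, and its called exon is a microexon of 21 nt that keeps the reading frame. It was included at 10.84% and 8.14% in the double knockdown, 83.03% and 83.67% after Fubp1 knockdown, 88.24% and 80.34% after Khsrp knockdown, and 91.79%, 92.83% and 94.85% in siNT. Each single knockdown lay slightly below siNT and the double far below both. The departure was -4.25 ± 0.54 (SE, limma adjusted p = 0.00813), and the same microexon is listed a second time with its own entry that was also called.

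The exon of the histone methyltransferase gene Mll3 (Kmt2c in GENCODE) has 120 nt. Its inclusion averaged 45.58% ± 3.85 in the double knockdown, 95.8% ± 1.92 after Fubp1 knockdown, 97.04% ± 1.7 after Khsrp knockdown (SD, n = 2 each) and 95.49% ± 3.78 in siNT (SD, n = 3). An 89 nt exon of Alg6, a glucosyltransferase of the glycan precursor for N-glycosylation, averaged 42.07% ± 1.2 in the double knockdown, 96.24% ± 1.59 after Fubp1 knockdown, 91.54% ± 0.34 after Khsrp knockdown (SD, n = 2 each) and 94.77% ± 2.75 in siNT (SD, n = 3). Neither exon showed overlap between the double knockdown and the other groups, and the limma adjusted p was 0.0209 for Mll3 and 0.045 for Alg6. With a term for the library sets, the exons of Zmym4 and Alg6 were no longer called, while those of Btaf1, Zmym2, Senp6 and Mll3 were.

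**Figure D2:**
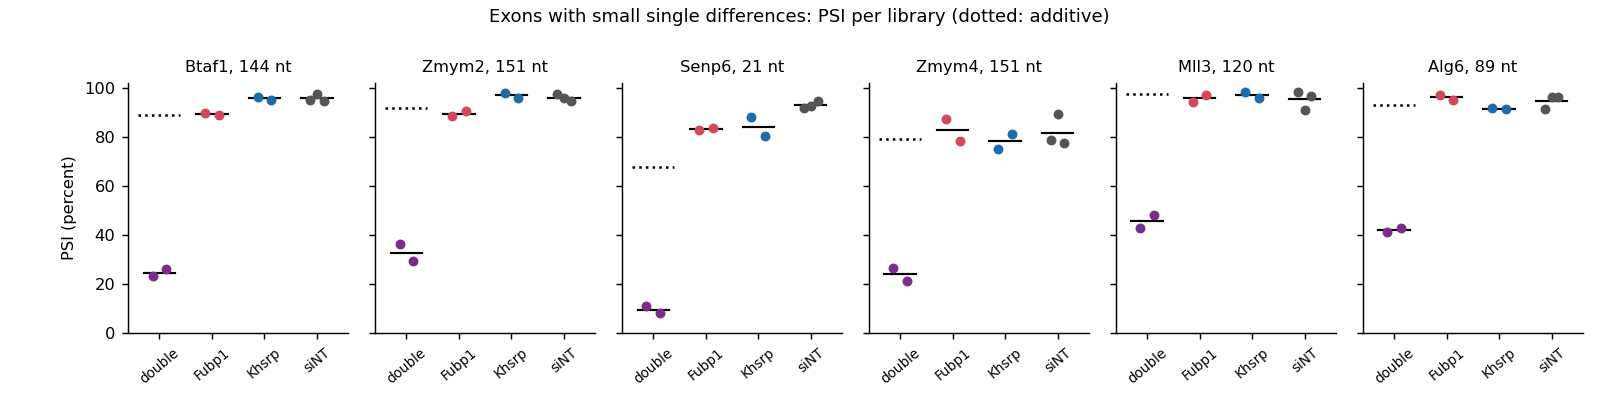
PSI (vertical axis, percent) of the 6 named redundancy exons, 1 panel per exon, which lay furthest from additivity with 1 exon per gene and at least 20 reads in every library. Each point is a library of the double, Fubp1, Khsrp or siNT group, bars are group means, and the dotted line is the PSI that additivity gives for the double knockdown; the double lies at 9.49% to 45.58% on average while the other group means stay above 78%.

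Some called exons had a called neighbour. In 14 of the 92 genes more than 1 event was called, and in 7 genes the called exons were next to each other in the matched annotation. In the double knockdown these 7 pairs differed by a median of 3.2 points of PSI and by at most 61.0 points, in Abi2 (65.06% and 4.01%). Those of Rab28 were at 54.62% and 75.79% in the double knockdown. Neighbouring exons of Btaf1 (115 and 144 nt) were at 24.46% and 24.57% in the double knockdown. Those of Cenpk, a kinetochore gene, were at 40.83% and 41.01% in the double knockdown, 97.09% and 96.62% after Fubp1 knockdown, 97.11% and 97.88% after Khsrp knockdown and 99.23% and 99.53% in siNT. Those of Ccnh, the cyclin partner of Cdk7, were at 20.3% and 20.77% in the double knockdown, 64.14% and 61.02% after Fubp1 knockdown, 79.06% and 77.98% after Khsrp knockdown and 83.14% and 82.29% in siNT. A 68 nt exon of Cdk7 itself was also called, at 70.72% in the double knockdown, 94.15% after Fubp1 knockdown, 97.64% after Khsrp knockdown and 97.9% in siNT. Neighbours skipped together can share junction reads, so they are not separate evidence. Rab28, Cenpk, Ccnh and Cdk7 were chosen after their values were seen.

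Outside exons 5 events were called, and the 3 described first, none with under 20 reads in a library, were also in the redundancy pattern. Intron retention in Dennd5b, a gene of the DENN domain family of Rab regulators, was 54.01% and 61.49% in the double knockdown, 10.37% and 20% after Fubp1 knockdown, 4.2% and 2.73% after Khsrp knockdown, and 5.14%, 9.35% and 5.7% in siNT. This was the only intron retained more than additivity gives, and its call (limma adjusted p = 0.0446) was lost with a term for the library sets and without siNT C. An intron of Hap1, which encodes a huntingtin-associated transport protein, was retained less, at 29.02% ± 2.81 in the double knockdown against 73.36% ± 1.95 after Fubp1 knockdown and 66.89% ± 0.59 after Khsrp knockdown (SD, n = 2 each) and 72.95% ± 5.37 in siNT (SD, n = 3). An alternative 3′ splice site of Purg was used at 49.63% in the double knockdown, 87.38% after Fubp1 knockdown, 87.47% after Khsrp knockdown and 85.23% in siNT (limma adjusted p = 0.0316). An intron of Ncrna00085, which had fewer than 20 reads in at least 1 library, lay as far from additivity as that of Dennd5b but in the masking pattern, at 51.61% and 49.46% in the double knockdown, 95.18% and 100% after Fubp1 knockdown, 100% in both Khsrp libraries, and 78.37%, 88.41% and 100% in siNT. It was chosen after its values were seen.

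In 11 events, all of them exons with lower inclusion, Fubp1 or Khsrp knockdown alone moved inclusion by at least 10 points and the double went further than additivity gives. The authors' deposited table marks all 11 for the Fubp1 pool and 4 for the Khsrp pool. The 116 nt coding exon of Med6, a subunit of the Mediator complex, was included at 26.75% and 30.74% in the double knockdown, 87.32% and 83.82% after Fubp1 knockdown, 97.28% and 97.66% after Khsrp knockdown, and 96.96%, 98.51% and 98.09% in siNT. The Khsrp libraries overlapped siNT, the Fubp1 libraries were lower, and the double lay below both. Additivity gives 83.1% for this exon, and the departure was -3.61 ± 0.55 (SE, limma adjusted p = 0.0172).

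A 6 nt microexon of Hook3, an adaptor between dynein and its cargo, was included at 12.27% and 7.22% in the double knockdown, 63.34% and 69.65% after Fubp1 knockdown, 73.7% and 74.69% after Khsrp knockdown, and 78.71%, 76.83% and 74.94% in siNT. No double library came near the others, and the departure was -3.94 ± 0.52 (SE, limma adjusted p = 0.00973). In Sec31a, which encodes a coat protein of vesicles leaving the endoplasmic reticulum, a 78 nt exon averaged 21.87% in the double knockdown, 61.1% after Fubp1 knockdown, 87.84% after Khsrp knockdown and 84.43% in siNT. A 176 nt exon of Wasf3, a subunit of the actin-nucleating WAVE complex, averaged 35.8% in the double knockdown, 66.54% after Fubp1 knockdown, 89.3% after Khsrp knockdown and 81.54% in siNT. In both exons the Khsrp mean was above that of siNT while the double was the lowest group.

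The remaining named exons of this kind were in Hace1, a ubiquitin ligase gene, and Pcm1, which encodes the scaffold of centriolar satellites. The 83 nt Hace1 exon averaged 30.22% ± 0.05 in the double knockdown, 76.54% ± 5.38 after Fubp1 knockdown, 83.55% ± 1.9 after Khsrp knockdown (SD, n = 2 each) and 87.06% ± 1.72 in siNT (SD, n = 3). Its limma adjusted p of 0.0497 was the weakest of the named events, and the call was lost with a term for the library sets and without siNT C. The 173 nt Pcm1 exon averaged 43.1% ± 4.09 in the double knockdown, 78.82% ± 1.69 after Fubp1 knockdown, 93.59% ± 0.64 after Khsrp knockdown (SD, n = 2 each) and 92.68% ± 1.94 in siNT (SD, n = 3). Pcm1 had further exons of 132 and 137 nt in the redundancy pattern, at 38.83% and 76.17% in the double knockdown.

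Masking was seen in 9 events, and 6 of them were exons with more inclusion than additivity gives. The label rests on the sign of the departure against the larger single effect. It thus also covers events whose double passed siNT on the other side or whose singles hardly moved. An exon of Clvs1 stood at 96.87% in the double knockdown, 87.26% after Fubp1 knockdown, 86.61% after Khsrp knockdown and 87.47% in siNT. The greatest distance was in an 83 nt exon of Zfp560, which had fewer than 20 reads in at least 1 library and stood at 41.18% and 22.22% in the double knockdown, 77.14% and 79.31% after Fubp1 knockdown, 89.47% and 93.33% after Khsrp knockdown, and 65.85%, 73.68% and 78.57% in siNT. Clvs1 and Zfp560 were chosen after their values were seen. The 84 nt coding exon of Sh3pxd2a, a scaffold gene of podosomes, was included at 72.27% and 72.61% in the double knockdown, 37.94% and 32.12% after Fubp1 knockdown, 39.39% and 37.65% after Khsrp knockdown, and 43.85%, 45.78% and 48.66% in siNT. Each single knockdown was below siNT and the double was above it, without overlap. Additivity gives 28.45%, and the departure was 2.72 ± 0.41 (SE, limma adjusted p = 0.0172).

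The 75 nt exon of Epn1, an adaptor of clathrin-mediated endocytosis, was included at 91.52% and 88.97% in the double knockdown, 52.94% and 62.28% after Fubp1 knockdown, 87.13% and 77.39% after Khsrp knockdown, and 81.1%, 87.54% and 84.92% in siNT. Inclusion was low after Fubp1 knockdown and highest in the double. The departure was 2.95 ± 0.56 (SE, limma adjusted p = 0.0437), and this call was lost with a term for the library sets and without siNT C. The microexon of 18 nt in Abi2, another WAVE subunit, went the other way. It was included at 5.04% and 2.99% in the double knockdown, 43.4% and 45.7% after Fubp1 knockdown, 16.81% and 9.68% after Khsrp knockdown, and 18.18%, 19.06% and 14.58% in siNT. Fubp1 knockdown alone stood far above siNT, and the double stood below all other libraries, with a departure of -3.69 ± 0.62 (SE, limma adjusted p = 0.026). The exon before it, of 177 nt, was in the redundancy pattern at 65.06% in the double, against 97.08%, 98.75% and 98.64% in the Fubp1, Khsrp and siNT groups.

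In Prkar1a, which encodes a regulatory subunit of protein kinase A, a 184 nt exon in the untranslated region returned to the siNT level. It was included at 83.09% and 79.96% in the double knockdown, 65.14% and 64.1% after Fubp1 knockdown, 71.98% and 72.72% after Khsrp knockdown, and 84.79%, 82.21% and 81.88% in siNT. Each single knockdown was low without overlap, and the double overlapped siNT. Additivity gives 49.46%, and the departure was 2.18 ± 0.27 (SE, limma adjusted p = 0.00813) with 1500 to 10478 reads in each library. A 212 nt coding exon of Edem2, a gene of endoplasmic reticulum quality control, averaged 96.6% in the double knockdown, 84.82% after Fubp1 knockdown, 88.67% after Khsrp knockdown and 92.39% in siNT (limma adjusted p = 0.0293).

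**Figure D3:**
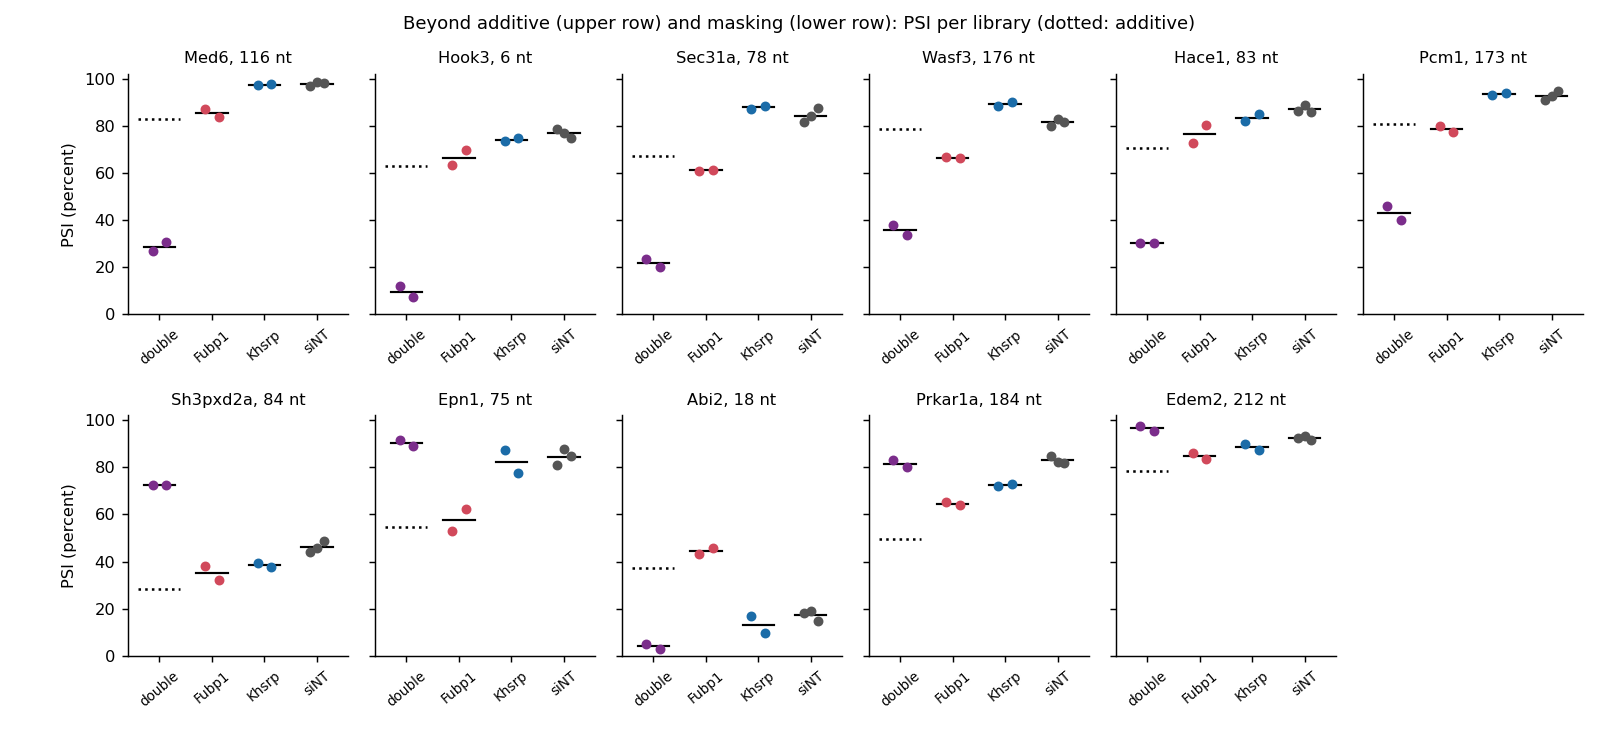
PSI (vertical axis, percent) per library for the 6 named exons beyond additivity (upper row) and 5 masking exons (lower row). Points are libraries of the double, Fubp1, Khsrp and siNT groups, bars are group means and the dotted line is the additive PSI; Sh3pxd2a, Epn1, Prkar1a and Edem2 lie above the dotted line in the double knockdown and the other 7 exons lie below it.

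No event with opposite single effects was called as departing from additivity. The contrast is 0 where opposite effects simply add up, so it cannot decide whether both proteins oppose each other at a site. In 172 tested events the single knockdowns differed from siNT in opposite directions by at least 10 points each, and limma called 0 of them, with 21 at an unadjusted p under 0.05. The double knockdown lay between both single knockdowns in 108 of the 172. That follows in part from the selection, because siNT and the additive level also lie between both single knockdowns in such events. The share over all tested events was not computed. The median departure of the 172 was -0.21 on the log2 odds, beside -0.08 for all tested events. With binomial weights alone 3 of these events were called, in Aplp2, Psap and Dst, the same 3 were called among events with a mean PSI from 5 to 95, and with additivity in points of PSI 2 were called, in Aplp2 and Akap9. The 111 nt exon of Dst, a gene for a cytoskeletal linker, averaged 93.92% in the double knockdown, 49.04% after Fubp1 knockdown, 82.91% after Khsrp knockdown and 61.18% in siNT (limma adjusted p = 0.0685). The 168 nt exon of Aplp2, from the family of the amyloid precursor protein, averaged 73.78%, 44.23%, 70.12% and 58.04% in the same groups (limma adjusted p = 0.0991). In both exons the double stood above the additive level and above both single knockdowns, and only in Aplp2 was it close to the Khsrp knockdown. Dst, Aplp2, Psap and Akap9 were chosen after their values were seen.

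The exons called lower had features that the contrast did not use. Among 88 of them matched to GENCODE, the first exonic base was A in 39.8% and G in 30.7%, while among 13570 tested exons at 80% or more in siNT it was A in 26.6% and G in 46.4%. Their median GC content was 40.6%, beside 48.9% in that comparison set. The flanking introns had medians of 3084.5 nt upstream and 3264 nt downstream, against 2292 and 2248 nt. Median length (113 against 115 nt), the share that keeps the reading frame (40.9% against 37.9%) and the share ending in AG (58.0% against 56.2%) lay close together. Of the 5 printed lower exons, Btaf1, Zmym2, Zmym4 and Med6 begin with A and have 38.2% to 39.7% GC, while Senp6 begins with C. Of the named lower exons that were not printed, those of Mll3, Alg6, Sec31a and Wasf3 begin with G and have 51.7% to 56.4% GC, and that of Hace1 begins with A and has 51.8%. The 9 matched exons called higher had a median GC content of 52.9%, with 67.9% in Sh3pxd2a and 64.0% in Epn1, and 1 of the 9 began with G. These shares describe called exons and were not tested.

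At the level of whole genes, only the authors' deposited group values were used, so a departure has no error and no test. Of 12613 genes with a mean of at least 1 RPKM, 1064 had a departure of at least 1 in size on the log2(RPKM + 0.1) scale (8.44%), 554 of them positive (4.39%) and 510 negative (4.04%). The median over all genes was 0.01 and the middle 50% lay between -0.29 and 0.31. Of the 1064, 721 were in the masking pattern, 133 in opposition, 112 in redundancy and 98 beyond additive. Both single values enter the departure with a minus sign, so error in a single value by itself pushes a gene towards masking. How many of the 721 arose that way was not tested. An authors' FDR under 0.05 in the double, Fubp1 or Khsrp comparison with siNT was present for 404 of the 721. The same held for 38 of the 133, 87 of the 112 and 78 of the 98. With a mean of at least 5 RPKM the total was 434, and with a pseudocount of 1 it was 649. The library sets could not be fitted here, and in bulk RNA fewer cells of a type and less RNA per cell cannot be told apart.

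Genes of the integrated stress response, the programme that the kinase pathway to Atf4 turns on when amino acids or protein folding fail, departed together. All 38 measured members had a positive departure, 16 reached at least 1, beside 4.39% of all genes, and 0 reached -1, and their median was 0.93 beside 0.01 over all genes. The median difference from siNT was -0.17 in the double, -0.75 with Fubp1 alone and -0.17 with Khsrp alone knocked down. By the authors' FDR under 0.05 in their deposited table, 7 fell and 7 rose in the double knockdown, 27 fell after Fubp1 knockdown, and 7 fell after Khsrp knockdown. Over all genes measured, 21.3% fell and 18.8% rose in the double knockdown, 17.1% fell after Fubp1 knockdown and 6.93% fell after Khsrp knockdown in that table. Masking accounted for 14 of the 16, a label that error in a single value also favours.

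Atf4, the transcription factor at the head of this programme, had 357.09 RPKM in the double knockdown, 149.4 after Fubp1 knockdown, 361.8 after Khsrp knockdown and 331.42 in siNT in the authors' deposited table, a departure of 1.13. The double knockdown was at the Khsrp and siNT level and only the Fubp1 knockdown was low. Ddit3, a pro-apoptotic transcription factor also called Chop, had 74.6, 19.17, 47.83 and 45.6 RPKM in the double, Fubp1, Khsrp and siNT groups, a departure of 1.89. The pseudokinase gene Trib3 had 33.73, 11.16, 17.88 and 24.8 RPKM, a departure of 2.06. For both genes the double was the highest group and the Fubp1 knockdown the lowest. The cystine transporter Slc7a11 had 5.94, 2.39, 3.35 and 7.85 RPKM in those groups, and with 2.48 its departure was the largest of the list. Cth, which makes cysteine, was low in both Fubp1-depleted groups, at 8.56 RPKM in the double knockdown and 8.85 after Fubp1 knockdown, against 18.08 after Khsrp knockdown and 40.72 in siNT. Atf3 and Nupr1 were in the redundancy pattern, with Atf3 at 14.98, 4.55, 5.12 and 5.06 RPKM and Nupr1 at 245.02, 68.66, 114.77 and 86.34 RPKM. Atf4, Cth, Atf3 and Nupr1 were chosen after their values were seen.

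**Figure D4:**
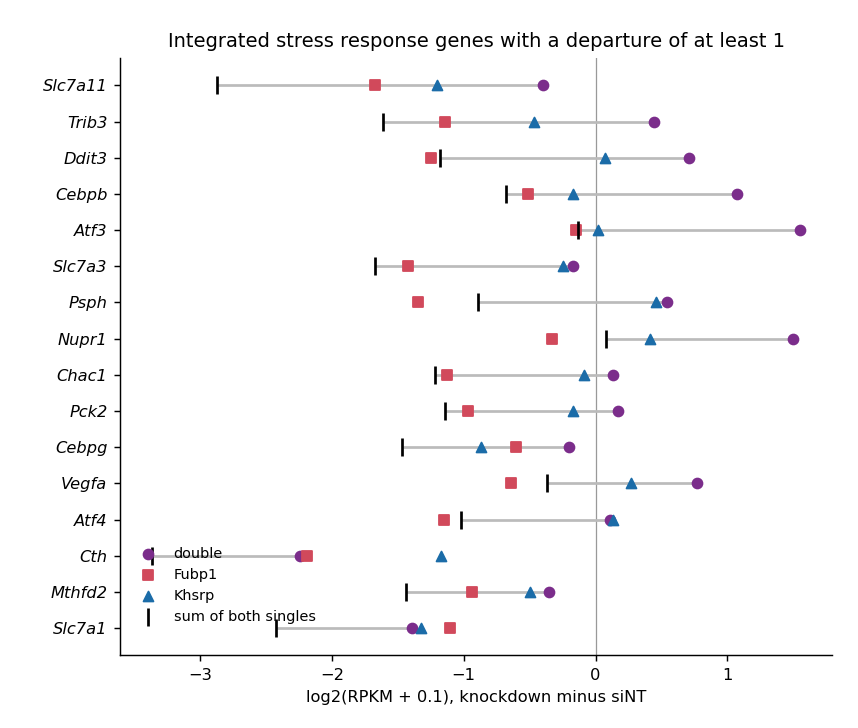
Difference from siNT (horizontal axis, log2(RPKM + 0.1)) of the 16 stress response genes with a departure of at least 1, in the double knockdown (circles), the Fubp1 knockdown (squares) and the Khsrp knockdown (triangles). The black tick is the sum of both single differences and the grey line from it to the circle is the departure; all 16 circles lie to the right of their tick.

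Sympathoadrenal transcription factors, which define the lineage of the line, had departures on both sides of 0. By the authors' FDR under 0.05 in their deposited table, 6 of the 13 measured fell in the double knockdown and 0 rose. Over all genes measured, 21.3% fell and 18.8% rose. The median difference of the 13 from siNT was -0.59 in the double knockdown. Of 13 measured, 8 had a negative departure, beside 48.6% of all genes, 4 had a departure of -1 or less, beside 4.04% of all genes, and 1 of at least 1, with a median of -0.37. Of those 4, Phox2a (-1.05) and Hand2 (-1.03) were at -0.52 and -0.66 from the authors' log2 fold changes, which leaves Gata3 and Isl1 past the threshold. Gata3 had 8.1 RPKM in the double knockdown, 16.46 after Fubp1 knockdown, 14.54 after Khsrp knockdown and 7.95 in siNT, a departure of -1.88. Both single knockdowns stood above siNT while the double was level with it. Isl1 had 8.11 RPKM in the double knockdown against 20.6, 18.08 and 17.31 RPKM in the Fubp1, Khsrp and siNT groups (departure -1.40), and it fell in the authors' deposited comparison of the double with siNT (FDR 4.2e-11). Gata2 was the member with a positive value, 1.25, from 44.73 RPKM in the double knockdown and 48.2, 23.99 and 61.72 RPKM in the Fubp1, Khsrp and siNT groups, and from the authors' log2 fold changes its departure was 0.76.

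Cell cycle genes had no departure of at least 1 in size. Of 50 genes of G2 and mitosis, 46 had a positive departure and 4 a negative one, where 48.6% of all genes had a negative one. Their median was 0.44, above the upper quartile of 0.31 over all genes. The median difference of these 50 from siNT was -0.22 in the double, -0.67 with Fubp1 alone and -0.04 with Khsrp alone knocked down. By the authors' FDR in their deposited table, 14 of them fell in the double knockdown and 43 after Fubp1 knockdown, where 21.3% and 17.1% of all genes did. Of 47 S phase genes 32 fell in the double knockdown and 41 after Fubp1 knockdown, with a median departure of 0.14. Among 24 p53 targets, 3 had a departure of at least 1 and none of -1, with a median of 0.26. They were the cell cycle inhibitor Cdkn1a (24.3 RPKM in the double knockdown and 9.84, 14.27 and 22.49 RPKM in the Fubp1, Khsrp and siNT groups), Phlda3 and Bbc3, and Bbc3 was at 0.78 by the authors' log2 fold changes.

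The other lists held few departures. Among 22 genes of the actomyosin group, Pdlim3 had a departure of -2.18 and Myl9 of -1.80, both from large increases in every knockdown. Myl9, a myosin light chain, had 139.12 RPKM in the double knockdown, 42.29 after Fubp1 knockdown, 54.91 after Khsrp knockdown and 4.71 in siNT. Its double level was the highest of the 4 and still fell short of the sum. Of 29 neuronal differentiation genes, Dbh, which makes noradrenaline, and the synaptic vesicle gene Syt1 (-1.21) were past the threshold. Among 71 splicing regulators the only one was Celf4 at -1.02, which was -0.66 by the authors' log2 fold changes, and the median of that list was -0.03. Of 26 interferon-stimulated genes Ddx58 was at -1.15 and Isg15 at 1.12, and of 20 integrin and matrix genes Lamb2 was at -1.13 and Vcan at 1.05. With a pseudocount of 1 these 4 were at -0.65, 0.97, -0.69 and 0.57, all short of the threshold, and from the authors' log2 fold changes Vcan was at 0.40. No member was past the threshold among the FUBP family with its partners (9 measured, median -0.28), the MYC targets (41, median 0.14), the sterol genes (24, median 0.29), the neurofilament, spectrin and ankyrin group (12, median -0.08) or the ubiquitin genes (4, median 0.61).

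**Figure D5:**
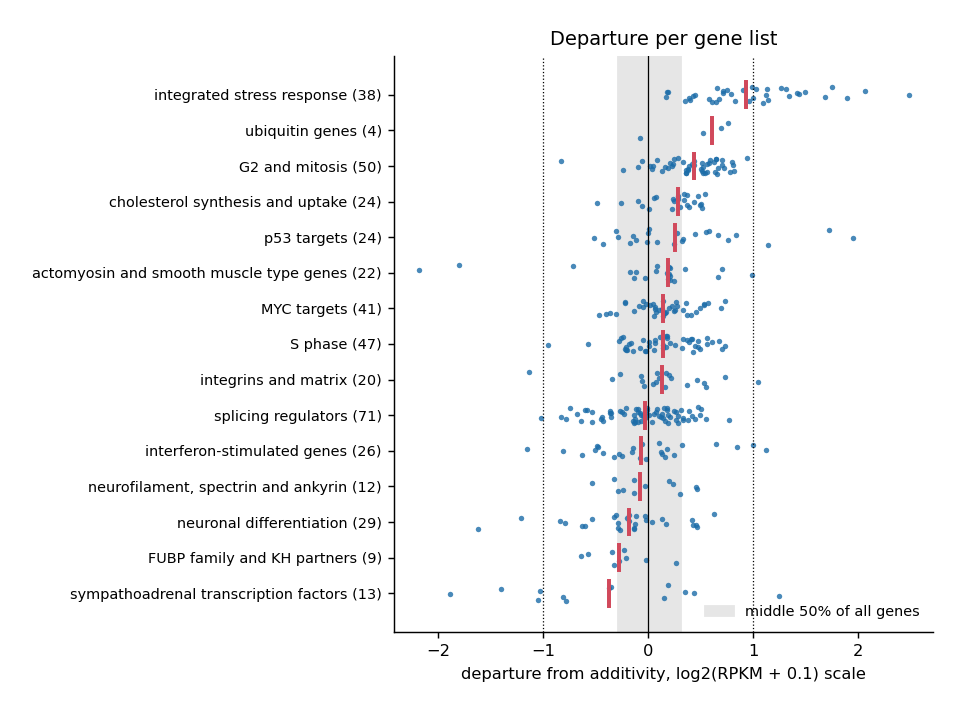
Departure from additivity (horizontal axis, log2(RPKM + 0.1) scale) of every measured gene in each list, with the number measured in brackets. Points are genes, red bars are list medians, the grey band holds the middle 50% of all genes and dotted lines mark -1 and 1; the stress response list lies wholly to the right of 0, and sympathoadrenal transcription factors have the lowest median.

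Outside the lists, the genes furthest from additivity in the redundancy pattern were Mir344b, Sh2d6, Kcnmb2, Btg3 and Klhl29. Kcnmb2, an accessory subunit of calcium-activated potassium channels, had 2.02 RPKM in the double knockdown, 8.8 after Fubp1 knockdown, 10.21 after Khsrp knockdown and 9.31 in siNT, a departure of -2.20. The kelch family gene Klhl29 had 1.52 RPKM in the double knockdown against 7.12, 6.23 and 7.52 RPKM in the Fubp1, Khsrp and siNT groups. Both were low in the double knockdown alone. Sh2d6 had 17.03 RPKM in the double knockdown and 2.63, 3.93 and 3.47 RPKM in the Fubp1, Khsrp and siNT groups, a departure of 2.47. Btg3, from a family of antiproliferative genes, had a departure of 1.94, which was 3.51 from the authors' log2 fold changes. Mir344b, a microRNA gene, had 0.49 RPKM in the double knockdown and 9.9 to 11.9 RPKM in the other groups, and its short length leaves the level uncertain in RNA selected for poly(A).

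Beyond additive, Prkca, which encodes protein kinase C alpha, had 2.18 RPKM in the double knockdown, 12.22 after Fubp1 knockdown, 8.85 after Khsrp knockdown and 15.12 in siNT, a departure of -1.67. The orphan receptor gene Gpr22 had 0.89 RPKM in the double knockdown and 8.63, 4.61 and 9.25 RPKM in the Fubp1, Khsrp and siNT groups. In both genes only the Khsrp knockdown passed the authors' test among the single knockdowns (FDR 0.000182 for Prkca and 0.000838 for Gpr22 in the deposited table). Tsga10 (1.49), Smco4 (1.64) and the small RNA Rnu73b (-1.43) completed the group.

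In the masking pattern, Disc1, a scaffold gene of neuronal development, had 4.15 RPKM in the double knockdown, 22.33 after Fubp1 knockdown, 11.18 after Khsrp knockdown and 8.66 in siNT. It rose in the authors' deposited comparison of the Fubp1 knockdown (FDR 7.77e-16) and fell in that of the double (FDR 8.87e-16). Cyb5r2, a cytochrome b5 reductase gene, did the reverse, with 34.6 RPKM in the double knockdown and 5.61, 13.03 and 10.07 RPKM in the Fubp1, Khsrp and siNT groups. Skida1 was at 7.82 RPKM in the double knockdown, 31.96 after Fubp1 knockdown, 10.18 after Khsrp knockdown and 9.83 in siNT. Pla2g2e, a secreted phospholipase gene, was lowest after Fubp1 knockdown, where Skida1 was highest, at 7.04, 2.27, 5.97 and 9.27 RPKM in the double, Fubp1, Khsrp and siNT groups.

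Opposition was described for genes by single differences of at least 0.5 in opposite directions. Dbh had 2.75 RPKM in the double knockdown, 5.91 after Fubp1 knockdown, 27.39 after Khsrp knockdown and 18.8 in siNT, a departure of -1.62. Its level in the double lay below both single knockdowns. Zfp169, a zinc finger gene, had 3.92, 24.51, 6.98 and 13.26 RPKM in the double, Fubp1, Khsrp and siNT groups. Nup35, a nuclear pore gene, had 38.12, 8.52, 45.64 and 25.06 RPKM in those groups. Hnf1aos1 (1.87) and Zfas1 (1.45), both long non-coding RNAs that lie opposite another gene, had positive departures, and no source used here says whether the counting used strand. No named gene of this pattern passed the authors' test in the Khsrp knockdown. The FDR there was 0.125 for Dbh, 0.183 for Zfp169, 0.374 for Nup35, 0.27 for Hnf1aos1 and 0.573 for Zfas1. In the Fubp1 knockdown Dbh (3.86e-13), Zfp169 (0.0303) and Nup35 (0.038) passed it, while Hnf1aos1 (0.177) and Zfas1 (0.631) did not. Opposite single effects in these genes thus rest on group values. The 133 genes of this pattern include 38 with an authors' FDR under 0.05 in any of the 3 knockdowns. Among all 1064 genes past the threshold, 607 had such an FDR.

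Genes with a called event passed the gene threshold at about the rate of all genes, and only with negative departures. Of 91 genes with a called event and a mean of at least 1 RPKM, 8 had a gene departure of -1 or less and 0 of at least 1. These 8 are 8.8% of the 91 and 0.75% of the 1064 genes past the threshold. Of all genes, 8.44% had a departure of at least 1 in size and 4.04% had one of -1 or less. The median departure of the 91 was -0.27, beside 0.01 over all genes, and 50 of them fell in the authors' deposited comparison of the double with siNT, where 21.3% of all genes did. Genes whose called lower coding exon has a length that is not a multiple of 3 (44 genes) had a median of -0.32 with 8 at -1 or less, and those with a multiple of 3 (34 genes) had -0.27 with 2 at -1 or less. A gene with exons of both kinds is counted in both groups. The 2 are Pcm1 (132 and 137 nt) and Zdhhc2 (27 and 95 nt), which have both kinds and are also among the 8. The difference between the groups was not tested.

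The most negative of these genes was Ccdc132 (Vps50 in the expression table), a subunit of an endosomal recycling complex. Its 91 nt coding exon was at 65.81% in the double knockdown, 95.64% after Fubp1 knockdown, 98.2% after Khsrp knockdown and 97.97% in siNT (limma adjusted p = 0.0209). Its transcript stood at 14.26 RPKM in the double knockdown, 44.47 after Fubp1 knockdown, 49.18 after Khsrp knockdown and 47.3 in siNT, so exon and transcript were both low in the double alone. Zmym2 and Pcm1 were also among the 8. Zmym2 had 33.43 RPKM in the double knockdown against 85.16, 53.96 and 64.35 RPKM in the Fubp1, Khsrp and siNT groups, and Pcm1 had 53.24 against 197.08, 131.15 and 221.45 RPKM. The other 5 were Impact, Zfp945, Sept10, Zdhhc2 and Strn3, with departures of -1.30 to -1.08. These genes were chosen after their values were seen.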

How the data were processed

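Stranded libraries of polyadenylated RNA with long inserts were made, per the labels' protocols. The splicing table deposited by the authors holds, for each library, percent spliced in and a quality text, a column of another kind ("other"), with corrected inclusion and exclusion reads from which the deposited percent was recomputed to within 0.05 points. A second deposited table gives a PSI score per group and the authors' calls, whose criterion no source used here states. The authors' expression table gives 1 RPKM value per group with log2 fold changes, p-values and FDR per knockdown, deposited without values per library. The submitters' processing notes name Salmon 0.14.1, edgeR and mm10 without roles. Coordinates of the splicing table do not follow GRCm38, so 17575 of 21319 tested exons were matched to GENCODE vM21 by their own and their flanking introns' lengths, and no others have a printed position.

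Of 401633 entries, 37194 first splice sites were left out. Events with at least 10 reads in all 11 libraries and a mean PSI from 1 to 99 were tested. The log2 odds, with 0.5 reads added, were fitted with limma 3.58.1 in R 4.3.3 (1 mean per group, all 11 libraries, empirical Bayes with a trend on reads). Weights were the inverse of the binomial variance plus a common library variance of 0.102, estimated from replicates. Reads have no molecular identifiers, so they cover counting error only. Replicates differed beyond counting error in 18.3% to 26.4% of events, so none was a repeat of another. The fit was tested on simulated data. Groups and letters came from the sample descriptions, since both Fubp1 titles end in A.

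An event was redundancy when both single differences were under 10 points and the double's at least 10, opposition when both singles were at least 10 with opposite signs, masking when the departure opposed the larger single effect, and beyond additive when it had its sign. For genes the same rules used 0.5 for single differences and 1 for the double. Named events, with at least 20 reads in each library of the contrast and 1 event per gene, are the 6 exons furthest from additivity per pattern, 2 introns and 2 splice sites (1 was found), and 1 of these exons is not reported here. Named genes are the 5 furthest per pattern at 5 RPKM with an authors' FDR under 0.05, up to 3 per list, and Fubp1, Khsrp and Fubp3. Clones named RP23 or RP24 (31 of 300 eligible genes) were left out after they were seen. Members and lists were chosen with earlier results of these data known. Python 3.11.15, pandas 2.3.3 and numpy 2.4.6 were used.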

Additional observations from a re-analysis of the deposited data

Results flagged for a closer look

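In 108 events the change in inclusion on adding the second knockdown differed between cells with and without the first one, by the limma test of the difference itself (Benjamini-Hochberg adjusted p under 0.05 and at least 10 points from additivity). Groups held 2 or 3 libraries, which is too few to test a single library for standing apart.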

How the results depend on the processing

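Calls were few at this depth and with 2 libraries per knockdown. Leaving out 1 library at a time gave 0 to 108 called events and 0 to 92 in the redundancy pattern; the values per library stand beside the counts in the report, and each lone library was then assumed to vary like the other groups. The total and the redundancy count were 0 and 0 without weights, 276 and 182 with binomial weights alone, 273 and 194 among events with a mean PSI from 5 to 95 and 939 and 760 with additivity in points of PSI, which included 106 of the 108. A term for the library sets left 85 calls, 71 of them among the 108. Replicate letters shared by groups did not pair the libraries: the deviations of same-lettered libraries had correlations of -0.062 to 0.058, and with the replicate block 74 events were called, 62 of them among the 108, with 53 in the redundancy pattern. Under 20 reads as the minimum, 1 read added, no floor on size, robust moderation and 9 libraries, the totals were 120, 125, 123, 150 and 109. None of the 21 events chosen by the naming rule changed direction under any of 22 alternatives. The cause of these shifts was not tested.

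Gene departures of at least 1 numbered 649 with a pseudocount of 1, 434 at a mean of at least 5 RPKM and 4039 with no filter on low values, against 1064. From the authors' log2 fold changes the number was 1061. The stress response list had 14 to 17 genes past the threshold in these alternatives, and no named gene changed sign.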
